A study of Mus musculus with 2 samples.

Results

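The collagen genes were defined here as every gene whose symbol has the form Col, a type number, a, and a chain number, which gave 44 of the 32285 genes listed in the files. By role they fell into 11 fibrillar genes (Col1a1, Col1a2, Col2a1, Col3a1, Col5a1, Col5a2, Col5a3, Col11a1, Col11a2, Col24a1 and Col27a1), 8 basement membrane genes (Col4a1 to Col4a6, Col15a1 and Col18a1) and 25 others. The rule reads gene symbols only. UMIs (unique molecular identifiers, which count captured RNA molecules) of all 44 were found in both libraries, and 29 genes had at least 500 UMIs over both.

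Collagens are triple helices of alpha chains that cells secrete into the extracellular matrix. The fibrillar types I, III and V build the tensile fibrils of the muscle sheaths and of tendon, whereas the type IV network forms the basement membrane that wraps each muscle fibre and capillary. Type VI filaments link these layers. In muscle, fibro-adipogenic progenitors (FAPs) are the main source of interstitial matrix, tenocytes make the fibrils of tendon, and muscle stem cells (MuSCs) rest against the basement membrane.

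The study asked what the drug Maraviroc (MVC) does to the cells of aging mouse muscle. Live mononuclear cells were sorted from limb muscle of mice given MVC or the vehicle DMSO and profiled with 10x Genomics droplets, 1 library for each treatment. The labels give neither dose, age, strain, sex nor the number of mice behind a library. The paper describes aged C57BL/6 mice injected intraperitoneally and shows these libraries with its regimen of a high dose over a short term. Mature muscle fibres are not mononuclear, and muscle fibre-like profiles numbered only 14 and 24. With 1 library for each treatment no difference below has a replicate check, no p-value was computed, and 95% intervals cover counting error only.

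After filtering, 5437 DMSO cells (median depth 5802 UMIs) and 5454 MVC cells (median depth 5195) remained, and 8 cell barcodes occurred in both libraries. Cell classes were rebuilt by clustering with the collagen genes left out of the variable genes, so that no collagen defined a class, and were named "X-like" from markers that include no collagen. FAP-like cells (1206 in the DMSO and 1430 in the MVC library), tenocyte-like cells (469 and 536), MuSC-like cells (146 and 261) and endothelial (EC-like) cells (2209 and 2079) carried most of what follows. Called doublets were kept (4.34% and 4.36% of cells). Levels are UMIs per 1000000 UMIs of the class (CPM), not divided by gene length, so they are compared between classes and libraries for 1 gene at a time.

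Collagen RNA outside its source classes differed between the libraries. In B cell-like cells, which should lack collagen RNA, the 44 genes made up 0.0121% of UMIs in the DMSO and 0.136% in the MVC library. In T and NK cell-like cells the share was 0.0127% and 0.0619%, and in neutrophil-like cells 0.0196% and 0.0105%. A collagen UMI was seen in 20.9% of DMSO and 38.5% of MVC B cell-like cells, but much of the MVC level lay in few cells. Of the 131 Col3a1 UMIs in MVC B cell-like cells, 91.6% lay in 3 cells, and among the 98 B cell-like cells not called doublets 1 cell held all 71 remaining UMIs. Doublets were 2.91% of DMSO and 10.1% of MVC B cell-like cells, and the summed level of 9 FAP markers there was 134 and 722 CPM. This level is given as the background below, and its part in the results was not tested except where a subtracted value is stated.

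Several members are neighbours in the genome (coordinates from GENCODE M21, GRCm38). Col4a1 (chr8:11198423-11312826, minus strand) and Col4a2 (chr8:11312805-11449287, plus strand) lie head to head and overlap by 22 bases at their starts. Col4a4 and Col4a3 on chr1 are head to head with 71 bases between them, and Col4a6 and Col4a5 on chrX with 1308 bases. Col3a1 (chr1:45311538-45349706) and Col5a2 lie tail to tail, 24614 bases apart. Col6a2 and Col6a1 lie on the same strand of chr10.

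RefSeq promoter windows (GRCm38.p6) matched 35 of the 44 symbols. The bases before the RefSeq start are shown for members of each role past the 1.5-fold limit used below in FAP-like or tenocyte-like cells, Col3a1 and Col1a2 (fibrillar), Col15a1 (basement membrane) and Col6a2 (type VI). Each sequence is 5′ to 3′ on the strand of the gene and leaves out bases that GENCODE places in an exon. Capitals mark the motif GGGCGG, known as the GC box, or the motif TATAAA, known as the TATA box, on either strand.
Col3a1: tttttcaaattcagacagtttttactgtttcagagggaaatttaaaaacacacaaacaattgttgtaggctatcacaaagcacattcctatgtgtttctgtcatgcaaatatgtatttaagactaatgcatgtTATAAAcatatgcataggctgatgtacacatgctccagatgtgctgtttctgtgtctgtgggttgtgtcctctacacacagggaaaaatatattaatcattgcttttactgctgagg
Col1a2: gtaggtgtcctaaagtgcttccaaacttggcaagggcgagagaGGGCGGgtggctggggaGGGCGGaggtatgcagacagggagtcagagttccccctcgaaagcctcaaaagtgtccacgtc
Col15a1: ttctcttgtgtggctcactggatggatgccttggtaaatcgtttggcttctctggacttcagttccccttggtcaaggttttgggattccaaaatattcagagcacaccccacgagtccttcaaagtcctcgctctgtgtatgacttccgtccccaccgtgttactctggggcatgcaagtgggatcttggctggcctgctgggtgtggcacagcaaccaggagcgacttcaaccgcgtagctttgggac
Col6a2: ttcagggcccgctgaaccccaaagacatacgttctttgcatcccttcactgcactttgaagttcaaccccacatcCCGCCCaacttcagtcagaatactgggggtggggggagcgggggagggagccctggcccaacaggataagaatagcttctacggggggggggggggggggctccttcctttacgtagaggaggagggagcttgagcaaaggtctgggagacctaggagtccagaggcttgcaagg
They are chr1:45311288-45311537, chr6:4505370-4505492, chr4:47207762-47208011 and chr10:76623631-76623880 (minus strand). The Col3a1 stretch holds 1 TATAAA and no GGGCGG and has 35.2% G and C, against a median of 52.4% over all promoter windows. The Col1a2 stretch holds 2 copies of GGGCGG and has 59.3% G and C, the Col6a2 stretch holds 1 copy, and the Col15a1 stretch holds neither motif. CCAAT, searched on both strands, is in none of the 4 printed stretches. The Col1a2 stretch has only 123 bases. The 127 bases left out as exonic include those next to the start, and its motif counts do not cover them. In 250-base windows of all 32851 promoters, GGGCGG was found in 32.7%, TATAAA in 12.4% and CCAAT in 33.8%. Among the 38 windows of collagen genes, 22 held GGGCGG, 5 TATAAA and 13 CCAAT. A match is a description of the letters, not of a bound site.

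FAP-like and tenocyte-like cells gave the largest share of their UMIs to collagen. In FAP-like cells the 44 genes took 0.555% of all UMIs in the DMSO library (95% exact binomial interval 0.551% to 0.559%) and 0.766% in the MVC library (0.761% to 0.771%). In tenocyte-like cells the share was 0.474% and 0.672%, and in MuSC-like cells 0.128% and 0.228%. In EC-like cells it was 0.178% in DMSO and 0.163% in MVC. The median FAP-like cell gave 0.409% of its UMIs to collagen in the DMSO library and 0.624% in the MVC library, so the higher FAP-like share was also that of the middle cell. The median MuSC-like cell gave 0.0949% and 0.141%.

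The groups differed in which cells carried them. Fibrillar genes took 0.224% of FAP-like UMIs in DMSO and 0.353% in MVC, and 0.198% and 0.352% of tenocyte-like UMIs. Basement membrane genes took 0.186% and 0.192% in FAP-like cells. Members of this group differed in opposite directions there, with 13990 and 12036 UMIs of Col4a1 and 1772 and 4761 of Col15a1. Basement membrane genes made up 89.6% of the collagen UMIs of EC-like cells in the DMSO and 86.7% in the MVC library, and 66.9% and 59.6% of those of pericyte-like cells. In tenocyte-like cells they were 15.3% and 9.85%.

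**Figure D1:**
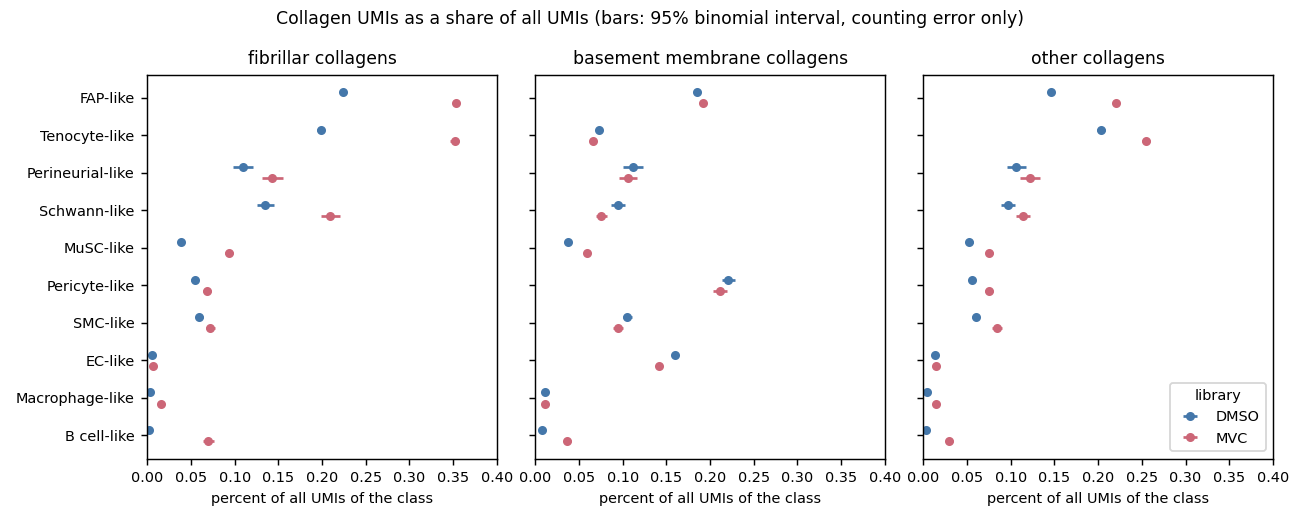
Share of all UMIs of a class (x axis, percent) taken by fibrillar, basement membrane and other collagens in 10 classes (y axis), with blue points for the DMSO and red points for the MVC library and bars for the 95% binomial interval. Fibrillar shares of FAP-like and tenocyte-like cells were higher in MVC (0.353% against 0.224%, and 0.352% against 0.198%), while basement membrane shares of FAP-like cells lay close together (0.186% and 0.192%). Within that last group Col4a1 was lower and Col15a1 higher in MVC.

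Among the fibrillar genes, the type I chains peaked in tenocyte-like cells and Col3a1 in FAP-like cells. Col1a1, the main chain of type I collagen, stood at 376 CPM (DMSO) and 887 CPM (MVC) in tenocyte-like cells and at 359 and 506 CPM in FAP-like cells. Its partner Col1a2 stood at 707 and 1457 CPM in tenocyte-like and at 680 and 874 CPM in FAP-like cells. In the DMSO library both genes thus lay close together in the 2 classes, and in the MVC library tenocyte-like cells were the higher. Col3a1, the chain of type III collagen, reached 578 and 1220 CPM in FAP-like cells but 112 and 267 CPM in tenocyte-like cells.

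Type V chains, which set fibril diameter, spread more widely. Col5a2 was 307 and 395 CPM in FAP-like, 373 and 336 CPM in tenocyte-like and 336 and 472 CPM in Schwann-like cells. Col5a1 was highest in FAP-like cells (125 and 219 CPM), and Col5a3 was at 155 and 251 CPM in FAP-like, 191 and 218 CPM in Schwann-like and 188 and 142 CPM in pericyte-like cells. Col11a1 and Col11a2, chains of the minor fibrillar type XI, were tenocyte genes here (212 and 286 CPM, and 35.3 and 56.3 CPM), with Col11a1 also at 157 and 209 CPM in Schwann-like cells. Col27a1 (170 and 253 CPM) and Col24a1 (35.8 and 118 CPM) were highest in Schwann-like cells. Doublets were 20.2% and 14.96% of Schwann-like cells. Col2a1, the cartilage collagen, had 182 UMIs in the DMSO and 35 in the MVC library, of which 176 and 27 lay in tenocyte-like cells.

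Type IV chains were shared by vessel and stromal cells. Col4a1 stood at 1244 and 1051 CPM in pericyte-like, 1075 and 889 CPM in FAP-like, 891 and 750 CPM in EC-like, 567 and 463 CPM in smooth muscle (SMC-like) and 437 and 362 CPM in tenocyte-like cells. Every one of these 5 classes was lower in the MVC library. Col4a2 followed the same pericyte-first order (777 and 750 CPM) but with EC-like cells (620 and 570 CPM) above FAP-like cells (442 and 440 CPM). The alpha 3 and alpha 4 chains, known from kidney, were highest in perineurial-like cells (Col4a3 at 62.7 and 49.9 CPM, Col4a4 at 113 and 91.9 CPM), and FAP-like cells held 76.2 and 77.2 CPM of Col4a4. Perineurial-like cells numbered only 39 and 51, and these levels rest on 21 and 19 UMIs of Col4a3 and 38 and 35 of Col4a4. Col4a5 was at 54.1 and 66.2 CPM in pericyte-like cells. Col4a6 was at most 27.0 CPM in any class, but stood at 58.5 and 45.2 CPM in 1 SMC-like cluster (65 and 48 cells).

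The multiplexins, which carry endostatin-like domains and sit at the outer face of basement membranes, differed in source. Col15a1 was highest in FAP-like cells, with 136 CPM in DMSO and 352 CPM in MVC. Col18a1 was at 220 and 96.5 CPM in Schwann-like and at 88.5 and 148 CPM in lymphatic EC-like cells, so its leading class differed between the libraries.

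The other collagens included the genes most limited to 1 class. Col19a1, a minor collagen reported in differentiating muscle, stood at 311 and 292 CPM in MuSC-like cells and at 0 and 0.296 CPM in FAP-like cells. In cells thinned to 2000 UMIs it was seen in 36.2% (51 of 141) and 30% (75 of 250) of MuSC-like cells and in none of 202 and 94 B cell-like cells, which allows a share of cells with a UMI at this depth of up to 1.81% and 3.85% and sets no limit on cells expressing the gene. Col22a1, found at tissue junctions such as that of muscle and tendon, was at 99.9 and 143 CPM in tenocyte-like cells and at most 2.92 CPM in any of the other 12 classes with at least 30 cells in each library. Col20a1 was at 390 and 635 CPM in Schwann-like cells. Col25a1, a membrane-bound collagen, was at 83.5 and 244 CPM in SMC-like and 56.0 and 113 CPM in pericyte-like cells, and Col23a1 at 110 and 237 CPM in lymphatic EC-like cells. Among SMC-like cells, Col25a1 stood at 137 and 482 CPM in cluster 16 but at 9.49 and 7.86 CPM in cluster 20.

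Col12a1, which coats fibrils in tendon, stood at 1087 and 1096 CPM in tenocyte-like cells, and the next were FAP-like cells in the DMSO library (103 CPM, and 79.8 CPM in MVC) and perineurial-like cells in the MVC library (197 CPM, and 56.7 CPM in DMSO). Col14a1, its relative, was instead highest in FAP-like cells (153 and 203 CPM). The type VI chains Col6a1, Col6a2, Col6a3 and Col6a6 were highest in FAP-like cells, at 255 and 469 CPM (Col6a1), 202 and 376 CPM (Col6a2), 336 and 537 CPM (Col6a3) and 75.7 and 132 CPM (Col6a6). Col6a3 was also at 254 and 326 CPM in pericyte-like cells. Col8a1 was highest in perineurial-like cells (561 and 459 CPM) and Col8a2 in tenocyte-like cells (38.4 and 69.8 CPM). Col16a1 was highest in Schwann-like cells (165 and 129 CPM).

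The 15 genes with fewer than 500 UMIs were Col2a1, Col4a6, Col6a4, Col6a5, Col7a1, Col9a1, Col9a2, Col9a3, Col10a1, Col11a2, Col13a1, Col17a1, Col24a1, Col26a1 and Col28a1. Their classes with the highest mean level were tenocyte-like for Col2a1, Col11a2 and Col13a1, Schwann-like for Col9a1, Col9a3, Col24a1 and Col28a1, perineurial-like for Col6a5 and Col7a1, SMC-like for Col4a6 and Col6a4, and MuSC-like for Col26a1. For Col4a6 and Col7a1 the leading class differed between the libraries, and Col7a1 had a mean of only 5.25 CPM in perineurial-like cells. Col9a2, Col10a1 and Col17a1 stayed under 9 CPM in every class, and no leading class is given.

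**Figure D2:**
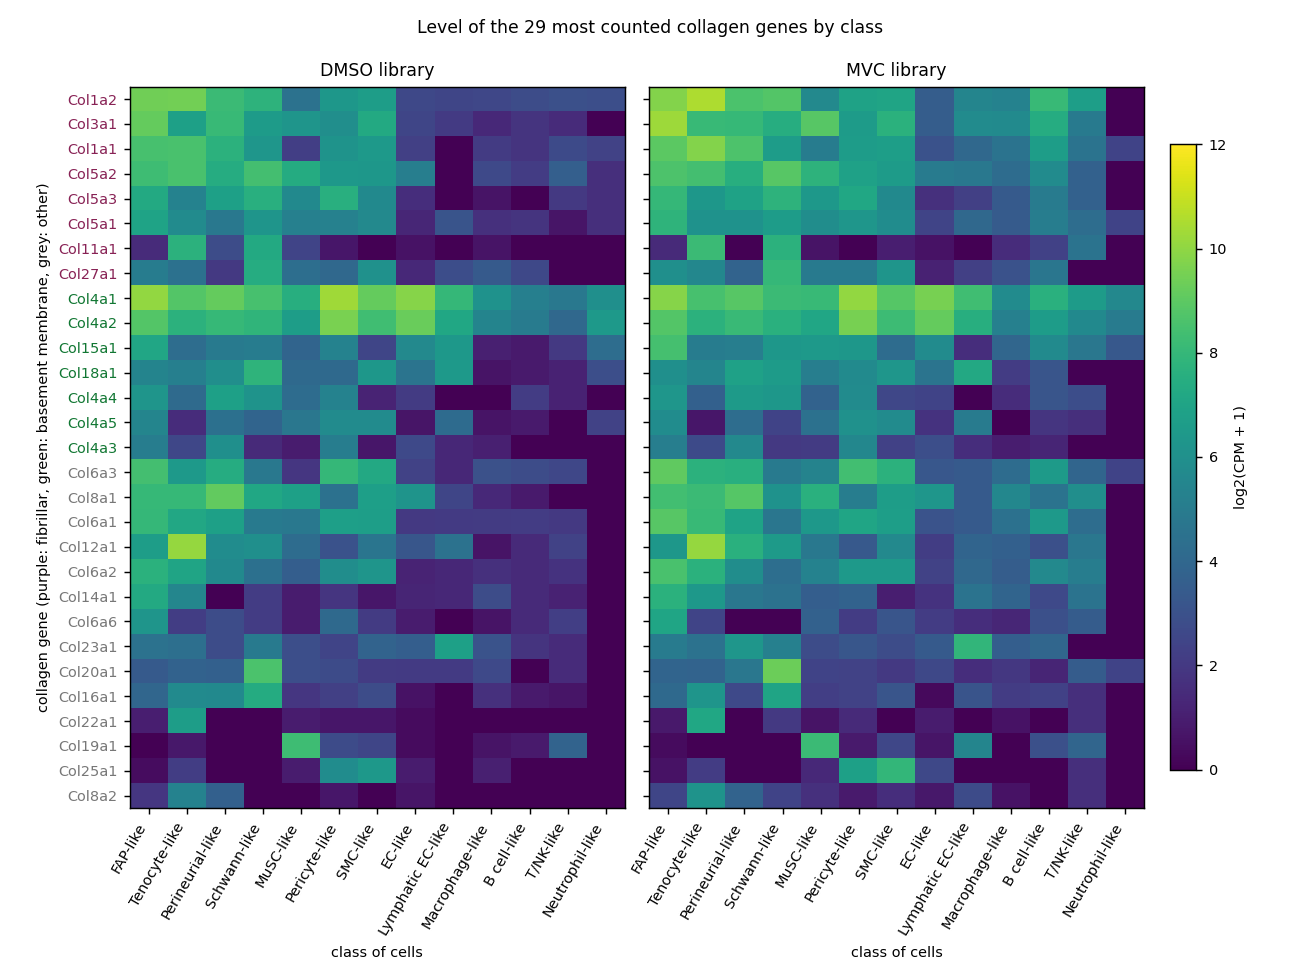
Colour gives log2(CPM + 1) of the 29 collagen genes with at least 500 UMIs (rows) in 13 classes (columns) of the DMSO (left) and MVC (right) library. Col19a1 stood out in MuSC-like (311 and 292 CPM), Col22a1 in tenocyte-like (99.9 and 143 CPM) and Col20a1 in Schwann-like cells (390 and 635 CPM), while Col4a1 was high in most stromal and vessel classes.

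In FAP-like cells, 10 of the 31 members with at least 50 UMIs were at least 1.5-fold higher in the MVC library and none was 1.5-fold lower. Of all 12759 genes with that many UMIs, 11.5% were higher by that fold and 3.31% lower. The members past the fold were Col3a1, Col5a1, Col5a3 and Col27a1 among fibrillar genes, Col15a1 among basement membrane genes, and Col6a1, Col6a2, Col6a3, Col6a6 and Col8a2 among the others. The median log2 ratio of tested members was 0.38, and by group 0.70 for fibrillar, 0.12 for basement membrane and 0.39 for other collagens, against 0.13 for all genes. The ratio of the middle gene was 1.10, so ratios stand relative to that shift: scaled by it, 8 members were past the fold and the background became 7.05% higher and 5.13% lower. With the B cell-like level subtracted, 8 were past the fold as higher and 1 as lower.

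Col15a1 and Col3a1 had the largest ratios. Col15a1 had 1772 UMIs (136 CPM) in DMSO and 4761 UMIs (352 CPM) in MVC, a ratio of 2.58 (95% exact conditional interval 2.45 to 2.73). Col3a1 had 7527 UMIs (578 CPM) and 16508 UMIs (1220 CPM), a ratio of 2.11 (2.05 to 2.17). The type VI chains, which anchor cells to the interstitial matrix, lay close together: Col6a2 at 1.86 (1.78 to 1.95), Col6a1 at 1.84 (1.77 to 1.92), Col6a6 at 1.74 (1.61 to 1.89) and Col6a3 at 1.60 (1.54 to 1.66). Col5a1 was at 1.76 and Col5a3 at 1.62, and the less counted Col27a1 at 1.95 and Col8a2 at 1.73 (1.13 to 2.70, from 35 and 63 UMIs).

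Type I and type IV chains differed less. Col1a1 was 1.41-fold (1.36 to 1.46) and Col1a2 1.29-fold (1.25 to 1.32) higher, as was Col5a2 at 1.29. Col4a1 was at 1075 CPM in DMSO and 889 CPM in MVC, a ratio of 0.83 (0.81 to 0.85). Col4a2 (0.995, 0.96 to 1.03), Col4a3 (1.02, 0.89 to 1.16) and Col4a4 (1.01, 0.93 to 1.11) had intervals that include 1 when scaled by total UMIs, and would stand near 0.9 when scaled by the middle gene. Col12a1 was lower, at 103 and 79.8 CPM (0.77, 0.71 to 0.84).

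At equal depth, more MVC than DMSO FAP-like cells had a UMI of Col3a1, Col15a1, Col6a1 and Col1a1, and fewer had one of Col4a1. With each cell thinned to 2000 UMIs, Col3a1 was seen in 39.7% of 1162 DMSO and 61.9% of 1310 MVC FAP-like cells (70.1% and 81.2% of all cells without thinning). Col15a1 was seen in 20.9% and 38.2% and Col6a1 in 32.9% and 51.9%. Col1a1 was seen in 36.7% and 49.2%, and Col4a1 in 70.8% and 66.5%. In thinned B cell-like cells Col3a1 was seen in 0.990% and 4.26%. The 9 FAP markers, none of them a collagen, summed to 4240 CPM in DMSO and 5696 CPM in MVC FAP-like cells, with 8 of 9 higher in MVC. The part of this in the collagen ratios was not tested.

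**Figure D3:**
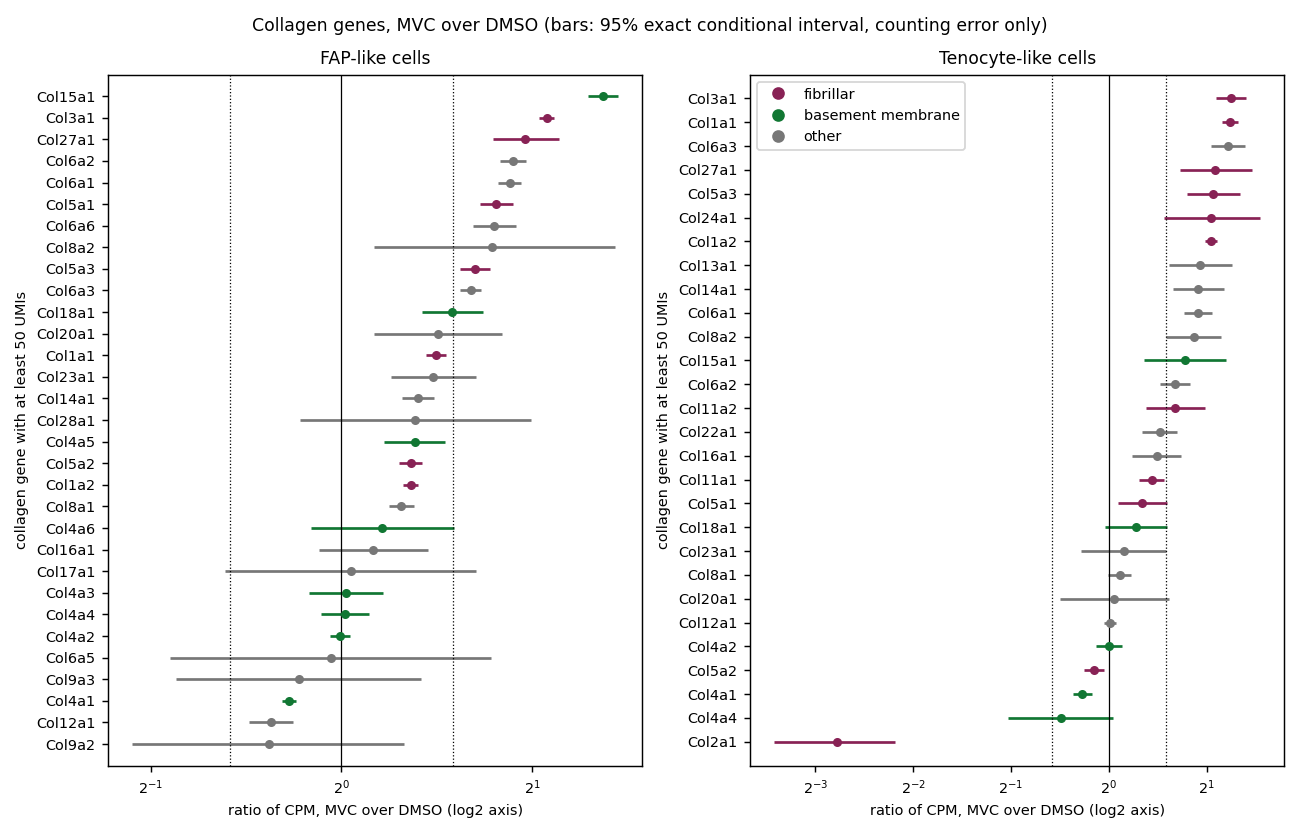
Ratio of CPM, MVC over DMSO (x axis, log2 scale), of each collagen gene with at least 50 UMIs in FAP-like (left) and tenocyte-like (right) cells, with bars for the 95% exact conditional interval, dotted lines at the 1.5-fold limits and colour for the group. In FAP-like cells Col15a1 (2.58) and Col3a1 (2.11) were highest and Col4a1 (0.83) was below 1, and in tenocyte-like cells Col3a1 (2.37) and Col1a1 (2.36) were highest and Col2a1 (0.15) was lowest.

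FAP-like cells came from 3 clusters that differed in their collagens. Cluster 1 (571 and 540 cells) had Ifi205 and Ptx3 among its 10 leading genes, cluster 2 (343 and 574 cells) Cxcl14 and Trhde, and cluster 5 (292 and 316 cells) Pi16, Dmkn and Sema3c. Cluster 2 made up 28.4% of FAP-like cells in DMSO and 40.1% in MVC and had the highest collagen share (0.677% and 0.963% of UMIs), while cluster 5 had the lowest (0.313% and 0.461%). Col15a1 was at 267 and 654 CPM in cluster 2 but 18.5 and 44.04 CPM in cluster 5. Col14a1 had the opposite distribution, with 344 and 526 CPM in cluster 5 and 64.1 and 79.9 CPM in cluster 2. Col8a1 stood at 502 and 545 CPM in cluster 1.

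The higher levels in MVC were also found within the clusters. Col3a1 was 1.68-fold (1.62 to 1.75) higher in cluster 1, 2.23-fold (2.13 to 2.34) in cluster 2 and 2.51-fold (2.35 to 2.69) in cluster 5. Col15a1 was 1.89-fold, 2.45-fold and 2.39-fold higher, Col6a1 1.57-fold, 2.31-fold and 1.66-fold, and Col1a1 1.21-fold, 1.59-fold and 1.42-fold. Col4a1 was lower in each cluster (0.76, 0.84 and 0.81). With the clusters given the same weights in both libraries, the log2 ratio was 1.001 for Col3a1 and 1.14 for Col15a1, and 8 members were past the fold as higher and 1 as lower.

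Col8a1 and Col12a1 differed most within 1 cluster. Col8a1, a short-chain collagen, was at 40.1 CPM in DMSO and 224 CPM in MVC in cluster 5, a ratio of 5.58 (4.71 to 6.64), beside 1.09 (1.03 to 1.14) in cluster 1 and 1.58 (1.39 to 1.81, from 106 and 168 CPM) in cluster 2. Col12a1 was at 168 and 75.7 CPM in cluster 2, a ratio of 0.45 (0.39 to 0.52), beside 1.07 (0.94 to 1.22) in cluster 1 and 0.86 (0.73 to 1.01) in cluster 5. The differences between clusters were not tested.

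**Figure D4:**
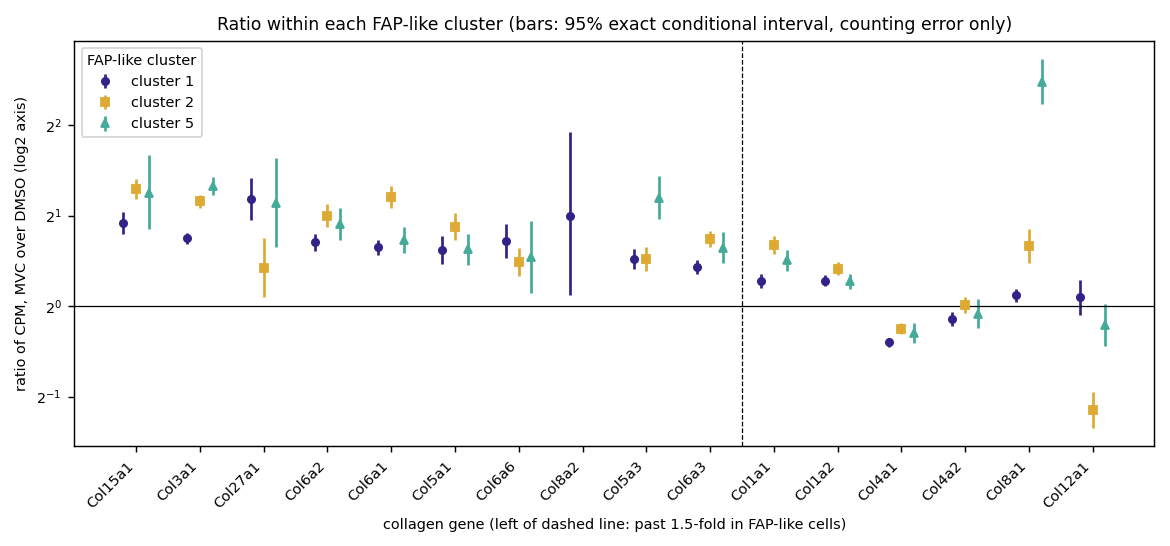
Ratio of CPM, MVC over DMSO (y axis, log2 scale), of 16 collagen genes (x axis) within FAP-like clusters 1, 2 and 5, with bars for the 95% exact conditional interval and genes with at least 50 UMIs in the cluster shown. Col3a1 lay above 1 in all 3 clusters (1.68, 2.23 and 2.51) and Col4a1 below 1 (0.76, 0.84 and 0.81), while Col8a1 reached 5.58 in cluster 5.

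In tenocyte-like cells, 14 of 28 tested members were past the fold as higher in MVC and 1 as lower, against 9.08% and 5.37% of all 9699 genes tested. The median log2 ratio was 1.04 for the 11 fibrillar genes, 0.00 for 5 basement membrane genes and 0.60 for 12 others, against 0.04 for all genes. The 7 fibrillar genes past the fold were Col1a1, Col1a2, Col3a1, Col5a3, Col11a2, Col24a1 and Col27a1. Col15a1, Col6a1, Col6a2, Col6a3, Col8a2, Col13a1 and Col14a1 were the others. With the B cell-like level subtracted, 7 members were past the fold as higher and 5 as lower (9 and 4 with doublets left out of that level). As in FAP-like cells, Col4a1 was lower (437 and 362 CPM, ratio 0.83, 0.77 to 0.89).

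Type I collagen carried this difference in UMIs. Col1a1 had 1590 UMIs (376 CPM) in DMSO and 3936 UMIs (887 CPM) in MVC, a ratio of 2.36 (2.22 to 2.50). Col1a2 had 2985 UMIs (707 CPM) and 6466 UMIs (1457 CPM), a ratio of 2.06 (1.97 to 2.15). Col6a3 was at 2.32 (2.06 to 2.63), Col5a3 at 2.09 (1.74 to 2.53), Col13a1, a membrane collagen, at 1.91 (1.53 to 2.39) and Col14a1 at 1.88 (1.58 to 2.25). Col6a1 was at 1.87, Col8a2 at 1.82, Col15a1 at 1.71, and Col6a2 and Col11a2 at 1.60. The MVC level of Col15a1 was below that of B cell-like cells. With called doublets left out it was 27.7 CPM in tenocyte-like and 5.03 CPM in B cell-like cells. Col27a1 (2.12) and Col24a1 (2.06, from 53 and 115 UMIs) were less counted. Col12a1, at over 1000 CPM in both libraries, was at 1.01 (0.97 to 1.05). Col11a1 (1.35) and Col22a1 (1.43) stayed inside the fold.

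Col3a1 and Col2a1 were uneven in this class. Col3a1 was 2.37-fold (2.13 to 2.65) higher over the class, but 5.91-fold (4.99 to 7.05) higher in cluster 8, which was led by Col22a1, Ptx4 and Scx, and 0.76-fold (0.64 to 0.89) in cluster 10, led by Wif1, Kera and Angptl7. In cluster 8, 47.1% of the MVC Col3a1 UMIs lay in 3 cells, and in cluster 10, 50% of the DMSO UMIs did. The summed FAP markers were 402 and 540 CPM in cluster 8 and 764 and 940 CPM in cluster 10. With the B cell-like level subtracted, the log2 ratio of Col3a1 turned to -0.24, with doublets left out of that level it was 0.43, and with doublets left out of all classes 1.82. Col1a1 was 2.94-fold higher in cluster 8 and 1.71-fold in cluster 10. Col2a1 had 176 UMIs in DMSO, of which 93.8% lay in 3 cells, and 27 in MVC (ratio 0.15, 0.09 to 0.22).

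In MuSC-like cells, 13 of 20 tested members were past the fold as higher in MVC and none as lower, against 10.2% and 9.2% of all 6427 genes tested. Of these, 11 had an interval without 1: Col1a1, Col1a2, Col3a1, Col5a1, Col5a3, Col6a1, Col6a2, Col6a3, Col8a1, Col15a1 and Col18a1. With the B cell-like level subtracted, 4 were past the fold as higher and 3 as lower (6 and 1 with doublets left out of that level). Col19a1, the gene with its highest level in this class, was not among them (ratio 0.94, 0.82 to 1.08). Basement membrane chains were at 182 and 269 CPM for Col4a1 (1.48, 1.25 to 1.75) and at 100 and 136 CPM for Col4a2 (1.36, 1.09 to 1.72). With called doublets left out they were at 193 and 234 CPM (Col4a1) and 95.4 and 115 CPM (Col4a2). B cell-like cells not called doublets held 9.84 and 122 CPM of Col4a1 and 0.894 and 33.5 CPM of Col4a2. The part of that level in these 2 ratios was not tested.

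Col3a1 had 83 UMIs (74.96 CPM) in DMSO and 872 UMIs (465 CPM) in MVC MuSC-like cells, a ratio of 6.20 (4.95 to 7.86). Its 3 highest cells held 59.0% of the DMSO and 36.5% of the MVC UMIs. In thinned cells it was seen in 9.93% (14 of 141) and 19.6% (49 of 250), beside 0.990% and 4.26% of B cell-like cells. Col15a1 had 15 and 169 UMIs (6.65, 3.92 to 12.1) and was seen in 3.55% and 12% of thinned cells. Col6a1 had 30 and 154 UMIs (3.03, 2.04 to 4.64). Without called doublets the ratio of Col3a1 was 2.70 on the log2 scale and that of Col15a1 1.97, and 6 members were past the fold.

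The UMIs of Col1a1, Col1a2 and Col6a3 in MuSC-like cells sat in few cells. Col1a1 had 4 and 59 UMIs (8.70, 3.23 to 33.0), with 66.1% of the MVC UMIs in 3 cells, and Col6a3 had 3 and 76 UMIs (14.9, 4.92 to 74.1), with 75% in 3 cells. Col1a2 was at 2.24, Col6a2 at 3.64, Col18a1 at 2.07, Col8a1 at 1.74, Col5a3 at 1.63 and Col5a1 at 1.58. These levels moved with called doublets left out. Col1a2 was then at 5.02 and 10.0 CPM, Col6a2 at 10.0 and 20.6 CPM and Col18a1 at 18.1 and 28.9 CPM. Col8a1 was at 51.2 and 213 CPM (29 of 247 MVC cells), Col5a3 at 53.2 and 65.4 CPM and Col5a1 at 41.2 and 51.8 CPM. In the MVC library, Col1a1 (31.4 CPM), Col1a2 (48.5), Col6a1 (82.1), Col6a2 (39.4) and Col6a3 (40.5) were each below their level in B cell-like cells (102, 272, 86.3, 49.1 and 92.9 CPM). Without called doublets Col6a1 was at 65.4 CPM in MuSC-like cells (77 of 247 cells) and 55.3 CPM in B cell-like cells (4 of 98 cells). Col3a1 (465 CPM) and Col15a1 (90.1 CPM) were above theirs (174 and 51.8 CPM). The summed FAP markers in MuSC-like cells were 83.1 CPM in DMSO, with 4 of 9 at 0, and 380 CPM in MVC, with 7 of 9 higher. Without called doublets they were 85.4 and 160 CPM, and their part in the ratios was not tested.

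In the vessel classes, the most counted member was lower in MVC. Col4a1 was at 0.84 (0.82 to 0.87) in EC-like, 0.84 (0.79 to 0.91) in pericyte-like and 0.82 (0.73 to 0.92) in SMC-like cells. Col4a2 was at 0.92 (0.89 to 0.96) in EC-like cells, and in pericyte-like (0.97, 0.89 to 1.05) and SMC-like cells (0.94, 0.81 to 1.09) its interval included 1. The EC-like clusters were not uniform. Col4a1 ranged from 0.75 (0.68 to 0.83) in cluster 4 (221 and 467 cells) to 1.01 (0.92 to 1.12) in cluster 7 (307 and 262 cells). Col4a2 ranged from 0.81 (0.72 to 0.91) in cluster 4 to 1.05 (0.98 to 1.12) in cluster 0 (740 and 524 cells). None of these is past the fold.

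In pericyte-like cells, 8 of 19 tested members were past the fold as higher and none as lower, against 9.9% and 5.85% of all genes, or 7.81% and 7.2% when scaled by the middle gene. Those with an interval without 1 were Col18a1 (3.28, 2.03 to 5.44), Col5a1 (2.07), Col15a1 (2.06), Col25a1 (2.02), Col27a1 (1.90), Col3a1 (1.59) and Col6a2 (1.53). Without called doublets, 14.3% of DMSO and 8.39% of MVC pericyte-like cells, 5 members were past the fold as higher and 1 as lower, and Col3a1 was at 0.04 on the log2 scale. Col3a1 (95.5 CPM in MVC) was also below its B cell-like level (174 CPM), and with that level subtracted 2 members were past the fold as higher and 4 as lower. In SMC-like cells, 2 of 18 were higher and none lower, against 11.7% and 7.42% of all genes. Col25a1 had 126 and 248 UMIs (2.93, 2.35 to 3.65), with 54.8% and 45.6% of them in 3 cells. Cluster 16 (119 and 80 cells) held 120 and 244 of these UMIs. With called doublets left out Col25a1 was at 88.3 and 195 CPM in SMC-like cells. Col12a1 had 37 and 50 UMIs (2.01), with 76.0% of the MVC UMIs in 3 cells, and without doublets its log2 ratio turned to -0.18.

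In EC-like cells, 9 of 22 tested members were past the fold as higher and 2 as lower, against 10% and 3.89% of all genes. Higher were Col25a1 (9 and 41 UMIs, 5.77, 2.76 to 13.5), Col5a1 (3.04), Col6a1 (2.45), Col3a1 (2.22), Col1a2 (2.08), Col6a3 (2.03), Col1a1 (1.92) and Col20a1 (1.66). The 6 fibrillar and type VI genes among them were at 4.42 to 10.7 CPM in MVC EC-like cells, below the 33.2 to 272 CPM of B cell-like cells. Without called doublets, Col3a1 was seen in 47 of 2034 MVC EC-like cells and 1 of 98 B cell-like cells. The part of the B cell-like level in these ratios was not tested. With that level subtracted, 3 members were past the fold as higher. Col28a1 (7.37 and 3.68 CPM, ratio 0.50) and Col12a1 (8.14 and 3.56 CPM, ratio 0.44, 0.28 to 0.67) were lower. In macrophage-like cells, 6 of 8 tested members were higher (10.1% of all genes higher, 6.38% lower): Col3a1, Col8a1, Col1a2, Col1a1, Col6a1 and Col6a3, at 2.54-fold to 32.5-fold. From 61.4% to 80.2% of their MVC UMIs lay in 3 cells, and without called doublets none was past the fold as higher. All but Col8a1 (45.8 CPM in MVC, against 22.6 CPM) were below their level in B cell-like cells. In B cell-like cells all 7 tested members were higher (12.5% of all genes higher, 10% lower), with 60.3% to 91.6% of the MVC UMIs in 3 cells.

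At a fold of 2 in place of 1.5, 2 members in FAP-like cells were higher in MVC and none lower (background 2.84% and 1.11%), and in tenocyte-like cells 7 were higher and 1 lower (2.47% and 1.51%). In MuSC-like cells 8 were higher and none lower (3.55% and 2.27%), and in pericyte-like cells 4 were higher and none lower (2.18% and 1.32%). In SMC-like cells 2 were higher and none lower (3.62% and 2.15%), in EC-like cells 6 and 1 (2.49% and 0.897%), and in macrophage-like cells 6 and none (3.59% and 2.21%).

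In FAP-like cells, chains of 1 molecule kept a nearly fixed proportion between the libraries in some pairs and not in others. The UMI ratio of Col6a1 to Col6a2 in FAP-like cells was 1.26 (1.20 to 1.33) in DMSO and 1.25 (1.20 to 1.30) in MVC, so the higher level in MVC left it within counting error. In tenocyte-like cells it was 1.14 and 1.34, and in pericyte-like cells 1.84 and 1.46. Col4a3 to Col4a4 was 0.44 in both libraries in FAP-like cells, but 0.85 and 0.86 in pericyte-like and 1.67 and 1.49 in EC-like cells. Col4a1 to Col4a2 was 2.43 (2.36 to 2.51) and 2.02 (1.96 to 2.08) in FAP-like, 2.11 and 1.75 in tenocyte-like and 1.44 (1.39 to 1.48) and 1.31 (1.27 to 1.37) in EC-like cells, lower in MVC each time. Col1a1 to Col1a2 was 0.53 and 0.58 in FAP-like and 0.53 and 0.61 in tenocyte-like cells. Col5a1 to Col5a2 was 0.41 (0.38 to 0.43) and 0.56 (0.53 to 0.58) in FAP-like cells. Col8a1 to Col8a2 was 98.1 and 70.4 in FAP-like cells but 6.94 and 4.11 in tenocyte-like cells. A UMI ratio also holds the length and capture of each transcript, so only its change between classes and libraries is described.

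Genes that process collagen were read from lists of 15 chain-modifying enzymes, 9 chaperones and export factors, 8 genes of propeptide cleavage, 5 lysyl oxidases and 10 receptors. In FAP-like cells 4 of the 45 tested were past the fold as higher and 1 as lower, beside 11.5% and 3.31% of all genes, so these counts were no larger than the background shares. Lysyl oxidase (Lox), which cross-links collagen, was the lower, with 4832 UMIs (371 CPM) in DMSO and 1706 UMIs (126 CPM) in MVC, a ratio of 0.34 (0.32 to 0.36). The other 4 lysyl oxidases stayed inside the fold. Fkbp14, a chaperone of types III and VI, had 83 and 271 UMIs (3.14, 2.45 to 4.06). Colgalt2, a collagen galactosyltransferase, was at 1.86 (1.66 to 2.08), Adamts14, a procollagen N-proteinase, at 2.01 (1.31 to 3.14), and P3h2, a prolyl 3-hydroxylase, at 1.84. The collagen chaperone Serpinh1 was inside the fold.

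In tenocyte-like cells 10 of the 43 tested list genes were past the fold as higher and 2 as lower, beside 9.08% and 5.37% of all genes. Lox was at 1756 CPM in DMSO and 1131 CPM in MVC (0.64, 0.62 to 0.67) and Plod2, a lysyl hydroxylase, at 361 and 186 CPM (0.51, 0.47 to 0.56). Higher were Fkbp14 (15 and 66 UMIs, 4.19, 2.36 to 7.90), Pcolce, the enhancer of C-propeptide cleavage (90.4 and 197 CPM, 2.17), Sparc, a collagen chaperone (686 and 1264 CPM, 1.84), P4ha3 (1.80), the collagen receptor chain Itga2 (1.78), P3h4 (1.73), Crtap (1.69), P3h3 (1.67), Plod1 (1.58) and Creb3l1 (1.52). By list, the median log2 ratio was 0.39 for chain modification and 0.51 for chaperones, against 0.04 for all genes.

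Lox was also lower in MuSC-like (107 and 90 UMIs, 0.50, 0.37 to 0.66) and pericyte-like cells (42 and 10 UMIs, 0.31, 0.14 to 0.63), and higher in SMC-like cells (88 and 89 UMIs, 1.503, 1.11 to 2.04). Sparc was higher in MuSC-like cells (1.85) but lower in EC-like (627 and 412 CPM, 0.66) and pericyte-like cells (1320 and 790 CPM, 0.60, 0.55 to 0.65). In pericyte-like cells Serpinh1 (0.64), Creb3l1 (0.59), Loxl2 (0.61) and Pcolce2 (0.52) were lower and Fkbp9 (1.86) higher. In MuSC-like cells Adamts2 (3.10), Bmp1 (2.49), Pcolce (2.42), Loxl2 (2.32) and P3h2 (1.77) were higher and Fkbp7 (0.58) lower. There 6 of 27 tested list genes were past the fold as higher and 3 as lower, beside 10.2% and 9.2% of all genes. With the B cell-like level subtracted, the MuSC-like counts were 3 higher and 8 lower. SMC-like cells had Tll1 (1.97) and Pcolce (1.68) higher and Creb3l1 (0.66) lower. EC-like cells had Loxl4 (1.94), Loxl1 (1.80), Pcolce2 (1.75), Colgalt2 (1.53) and Creb3l1 (1.53) higher and Itga11 (0.45) lower. Macrophage-like cells had Colgalt2 (2.31), Ddr2 (2.29), Lair1 (1.81) and Serpinh1 (1.74) higher and Plod1 (0.66) lower. In B cell-like cells Tll1, Serpinh1, Sparc, Ddr2, Itgb1 and P4ha1 were higher, at 1.66-fold to 14.0-fold. Past the fold as higher and lower were 3 and 6 of 31 list genes in pericyte-like cells (all genes 9.9% and 5.85%). SMC-like cells had 4 and 1 of 24 (11.7% and 7.42%) and EC-like cells 5 and 2 of 36 (10% and 3.89%). Macrophage-like cells had 4 and 1 of 16 (10.1% and 6.38%) and B cell-like cells 6 and 0 of 11 (12.5% and 10%).

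**Figure D5:**
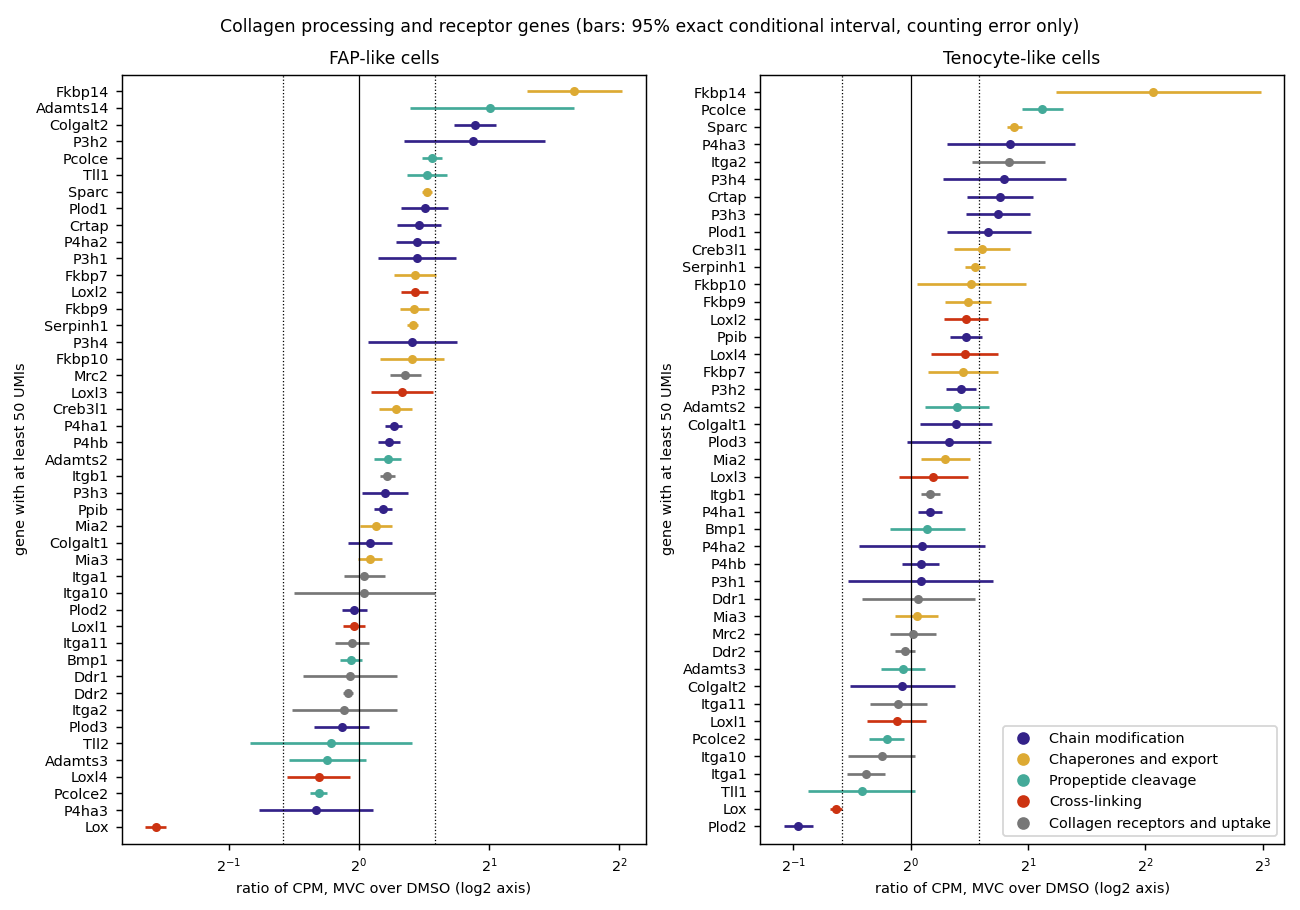
Ratio of CPM, MVC over DMSO (x axis, log2 scale), of genes of collagen processing and reception with at least 50 UMIs in FAP-like (left) and tenocyte-like (right) cells, coloured by list, with bars for the 95% exact conditional interval and dotted lines at the 1.5-fold limits. Lox was lowest in FAP-like cells (0.34), Plod2 (0.51) and Lox (0.64) were lowest in tenocyte-like cells, and Fkbp14 was highest in both (3.14 and 4.19).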

How the data were processed

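Single-cell RNA-seq of limb muscle mononuclear cells was deposited by the authors as raw UMI counts per gene and cell barcode, with Cell Ranger 7.0.0 as the maker named per the file headers (the submitters' processing notes list mm10 and Seurat 5.0.1) and limited to barcodes called as cells. Chemistry, annotation and the handling of intronic reads are not given in the sources used here. Cells passed with 500 genes or more and a mitochondrial share of UMIs up to 10%, 5437 of 5812 (DMSO) and 5454 of 6047 (MVC), with 38748234 and 35518029 UMIs.

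Counts were scaled to 10000 UMIs per cell, reduced to 30 components of variable genes without collagens, and clustered (Leiden resolution 1, 20 neighbours, scanpy 1.11.5, Python 3.11.15). Clusters were named from marker lists. Cell names are rebuilt and may differ from those of the study. The collagen genes, groups, markers and processing lists were chosen with earlier results of these data known.

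UMIs were summed by class and library. Ratios are of CPM, with 95% exact conditional intervals (scipy 1.17.1), and shares have Clopper-Pearson intervals, which cover counting error only. A gene was compared in a class if it had 50 UMIs or more there over both libraries and the class held 100 or more cells of each library. Those past 1.5-fold with an interval without 1 are named. No test was run, since each treatment is 1 library. The scripts were tested on simulated data. The alternatives included other clusterings, filters, scalings, doublet removal and subtraction of the B cell-like level.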

Additional observations from a re-analysis of the deposited data

Results flagged for a closer look

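Col12a1 was the member whose ratio past the fold lay on opposite sides of 1 in 2 classes. In SMC-like cells it had 37 UMIs in the DMSO and 50 UMIs in the MVC library, a ratio of 2.01 (1.29 to 3.16), with 76.0% of the MVC UMIs in 3 cells. In EC-like cells it had 84 and 29 UMIs, a ratio of 0.437 (0.276 to 0.674). The difference between the classes was not tested. Without called doublets the log2 ratio in SMC-like cells was -0.18. Summed tenocyte markers in SMC-like cells were 99.4 CPM in DMSO and 343 CPM in MVC, and 94.0 and 97.6 CPM without called doublets.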

How the results depend on the processing

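No paired analysis was possible because each treatment is 1 library, and for the same reason no replicate could be left out. In FAP-like cells the count of members higher in MVC was 8 to 13 under every alternative except a fold of 2. Counts in tenocyte-like, MuSC-like, pericyte-like and EC-like cells were lower once the B cell-like level was subtracted. That level rests largely on few cells. Its subtraction without called doublets, and the omission of the 3 cells highest for each gene, were therefore added after seeing the data. SMC-like cells under the stricter cell filter, macrophage-like cells at Leiden resolution 2 and the median macrophage-like share over cells gave no value. Members under 50 UMIs in a class could not be compared at this depth. The share of all genes past the fold was computed for the main setting and a fold of 2. For scaling by the middle gene it was computed in FAP-like and pericyte-like cells only. Counts under the other alternatives have no such background, so they show only how far the main counts moved.

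With the B cell-like level subtracted, the collagen genes higher in MVC numbered 3 in EC-like, 1 in macrophage-like, 4 in MuSC-like, 2 in pericyte-like and 7 in tenocyte-like cells. Under it, the collagen genes lower in MVC numbered 1 in FAP-like, 3 in MuSC-like, 4 in pericyte-like, 8 in SMC-like and 5 in tenocyte-like cells. Processing and receptor genes higher numbered 2 in EC-like, 1 in macrophage-like, 3 in MuSC-like, 1 in pericyte-like and 1 in SMC-like cells. By this alternative processing and receptor genes lower numbered 7 in EC-like, 3 in FAP-like, 3 in macrophage-like, 8 in MuSC-like, 12 in pericyte-like, 2 in SMC-like and 5 in tenocyte-like cells. Here the median log2 ratio was -0.28 for all members in pericyte-like, -0.51 for all members in SMC-like, 0.32 for all members in tenocyte-like, -0.52 for basement membrane genes in EC-like, -0.98 for basement membrane genes in tenocyte-like, 0.45 for fibrillar genes in FAP-like, -0.0237 for fibrillar genes in MuSC-like, -0.57 for fibrillar genes in pericyte-like, -1.21 for fibrillar genes in SMC-like, 0.39 for fibrillar genes in tenocyte-like, -0.51 for other genes in pericyte-like and -0.40 for other genes in SMC-like cells. Under it, the log2 ratio turned to -0.44 for Col15a1 in pericyte-like, -1.35 for Col27a1 in pericyte-like, -0.24 for Col3a1 in tenocyte-like, -0.44 for Col5a1 in MuSC-like and -0.51 for Col6a2 in pericyte-like cells. With the level of B cell-like cells not called doublets subtracted, the collagen genes higher in MVC numbered 2 in EC-like, 1 in macrophage-like, 6 in MuSC-like, 5 in pericyte-like and 9 in tenocyte-like cells. By this alternative the collagen genes lower in MVC numbered 1 in macrophage-like, 1 in MuSC-like, 2 in pericyte-like, 4 in SMC-like and 4 in tenocyte-like cells. Here processing and receptor genes higher numbered 1 in pericyte-like cells. Under it, processing and receptor genes lower numbered 7 in EC-like, 2 in FAP-like, 5 in macrophage-like and 2 in SMC-like cells. The median log2 ratio was -0.25 for all members in SMC-like, -0.19 for basement membrane genes in EC-like, 0.47 for fibrillar genes in FAP-like, -0.55 for fibrillar genes in pericyte-like, -0.37 for fibrillar genes in SMC-like and 0.44 for fibrillar genes in tenocyte-like cells. By this alternative the log2 ratio turned to -1.28 for Col27a1 in pericyte-like cells. At Leiden resolution 2, the collagen genes higher in MVC numbered 4 in EC-like cells. In that setting, processing and receptor genes higher numbered 3 in EC-like and 1 in pericyte-like cells. Then the median log2 ratio was 0.31 for fibrillar genes in EC-like cells. With a minimum of 200 UMIs, the collagen genes higher in MVC numbered 0 in EC-like, 0 in macrophage-like, 3 in MuSC-like, 2 in pericyte-like and 1 in SMC-like cells. Here the collagen genes lower in MVC numbered 0 in EC-like cells. Under it, processing and receptor genes higher numbered 2 in EC-like, 2 in FAP-like, 1 in macrophage-like, 1 in MuSC-like, 0 in pericyte-like and 0 in SMC-like cells. Processing and receptor genes lower numbered 1 in EC-like, 0 in macrophage-like, 0 in MuSC-like, 2 in pericyte-like and 0 in SMC-like cells. At a fold of 2, the collagen genes higher in MVC numbered 2 in FAP-like, 8 in MuSC-like, 4 in pericyte-like and 7 in tenocyte-like cells. Here the collagen genes lower in MVC numbered 1 in EC-like cells. In that setting, processing and receptor genes higher numbered 0 in EC-like, 2 in FAP-like, 2 in macrophage-like, 0 in pericyte-like, 0 in SMC-like and 2 in tenocyte-like cells. Processing and receptor genes lower numbered 1 in EC-like, 0 in macrophage-like, 1 in MuSC-like, 1 in pericyte-like, 0 in SMC-like and 0 in tenocyte-like cells. Under the stricter cell filter (1000 genes or more, mitochondrial share up to 5%), the collagen genes higher in MVC numbered 3 in macrophage-like cells. Here processing and receptor genes higher numbered 2 in FAP-like cells. Under it, the median log2 ratio was 0.60 for fibrillar genes in FAP-like cells. With a minimum of 20 UMIs, the collagen genes higher in MVC numbered 13 in macrophage-like cells. By this alternative the collagen genes lower in MVC numbered 1 in pericyte-like, 1 in SMC-like and 3 in tenocyte-like cells. Here processing and receptor genes higher numbered 9 in macrophage-like, 7 in pericyte-like and 9 in SMC-like cells. Under it, processing and receptor genes lower numbered 4 in macrophage-like and 4 in SMC-like cells. The median log2 ratio was 1.60 for other genes in MuSC-like cells. With doublets removed, the collagen genes higher in MVC numbered 0 in macrophage-like, 6 in MuSC-like and 5 in pericyte-like cells. Here the collagen genes lower in MVC numbered 1 in macrophage-like and 1 in pericyte-like cells. In that setting, processing and receptor genes higher numbered 3 in EC-like, 2 in macrophage-like and 2 in SMC-like cells. Processing and receptor genes lower numbered 2 in macrophage-like and 2 in SMC-like cells. By this alternative the median log2 ratio was 1.70 for fibrillar genes in EC-like cells. Here the ratio of collagen shares was 1.56 in macrophage-like, 1.61 in MuSC-like, 0.994 in pericyte-like, 1.04 in SMC-like and 1.48 in tenocyte-like cells. Under it, the log2 ratio turned to -0.18 for Col12a1 in SMC-like cells. Without the 3 cells highest for each gene, the collagen genes higher in MVC numbered 0 in macrophage-like and 1 in SMC-like cells. By this alternative the collagen genes lower in MVC numbered 0 in tenocyte-like cells. Here processing and receptor genes higher numbered 2 in EC-like, 2 in macrophage-like, 1 in pericyte-like and 1 in SMC-like cells. Under it, processing and receptor genes lower numbered 1 in EC-like and 3 in SMC-like cells. Then the median log2 ratio was 1.87 for other genes in MuSC-like cells. With equal FAP-like cluster weights, the collagen genes lower in MVC numbered 1 in FAP-like cells. Here the median log2 ratio was -0.0248 for basement membrane genes in FAP-like and 0.60 for fibrillar genes in FAP-like cells. With the median share over cells, the ratio of collagen shares was 0.939 in EC-like, 1.53 in FAP-like, 1.49 in MuSC-like, 1.01 in pericyte-like and 1.36 in tenocyte-like cells. With collagen genes kept for clustering, processing and receptor genes lower numbered 0 in SMC-like cells. By this alternative the median log2 ratio was 0.58 for fibrillar genes in FAP-like cells. Here the ratio of collagen shares was 1.37 in FAP-like and 1.45 in tenocyte-like cells. With scaling by the middle gene, processing and receptor genes higher numbered 3 in EC-like and 1 in pericyte-like cells. The median log2 ratio was 0.25 for all members in FAP-like and 0.57 for fibrillar genes in FAP-like cells. With the mean of each cell's CPM, processing and receptor genes lower numbered 0 in macrophage-like, 6 in MuSC-like and 0 in SMC-like cells. Where a value moved, the cause was not tested.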
